A study of Saccharomyces cerevisiae with 20 samples.

Results

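The *SAN1* overexpression strain is described here through 4 RNA-seq libraries of 20, and it was compared with the mean of 4 related strains and with each of them singly. The 4 other strains overexpress *TOS8*, *ROF1*, *SFL1*, or *HEK2*, and each has 4 libraries of its own. Genes were taken as the features whose systematic name begins with Y (ORFs), and 5772 of 6575 passed a minimum of 1 CPM in their median across libraries and entered the tests. CPM are read counts scaled to a common library size, here by the TMM method within ORFs. All 5 strains are haploid, of mating type *MAT*a, and derive from F45, which by itself forms fluffy, biofilm-like colonies. They share a drug marker in place of the mating type switching gene (*ho∆0*::*hphMX6*), a tagged sporulation gene (*SPS2*:*EGFP*:*natMX4*), and a serine auxotrophy that was not mapped. They differ in the gene carried by plasmid p5472 of the MoBY collection, a centromeric plasmid of low copy number on which the gene keeps its native promoter. The authors report that each of these plasmid genes made the colonies less fluffy. The loss of colony structure was very strong for *SFL1* and *HEK2*, intermediate for *SAN1* and *ROF1*, and weak for *TOS8*. Colonies grew for 4 d at 30° on YPD with 2% glucose and G418, which selects for the plasmid, and each sample pooled 3 to 5 whole colonies. The labels call the 4 samples of a strain biological replicates, but no source says whether they descend from separate transformants, so the p-values measure the spread between these samples. The strain with an empty vector was not analysed here, so each difference below is between overexpression strains and gives no change from normal *SAN1* dosage. In whole colonies, a lower share of some cells and less RNA per cell cannot be told apart.

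San1 is a ubiquitin ligase of the nucleus. It binds misfolded nuclear proteins directly through disordered stretches of its own chain, and it works with the ubiquitin-conjugating enzymes Cdc34 and Ubc1 to mark them for the proteasome. The gene takes its name from genetic interactions with *SIR4*, which encodes a silencing protein of telomeres and the silent mating loci. Its neighbor *MKC7* encodes a yapsin, an aspartyl protease tethered to the cell surface by a GPI anchor. Of the other plasmid genes, *SFL1* encodes a repressor of flocculation genes, *HEK2* an RNA-binding protein, *TOS8* a homeodomain transcription factor, and *ROF1* a putative transcription factor related to *MIT1*.

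*SAN1* and *MKC7* were the only ORFs that differed the same way from all 4 strains, and they lie in tandem on the minus strand of chromosome IV. Their start regions are shown because no other ORF had this pattern. Each runs from 250 bases before to 50 bases after the start of the ORF, as placed in the deposited counts, with letters from RefSeq's R64 assembly. Capitals mark the motifs found among 9 that were searched on both strands. The *SAN1* window (chrIV:743825-744124, minus strand) and the *MKC7* window (chrIV:746052-746351, minus strand) are given 5′ to 3′ along the gene.
*SAN1*: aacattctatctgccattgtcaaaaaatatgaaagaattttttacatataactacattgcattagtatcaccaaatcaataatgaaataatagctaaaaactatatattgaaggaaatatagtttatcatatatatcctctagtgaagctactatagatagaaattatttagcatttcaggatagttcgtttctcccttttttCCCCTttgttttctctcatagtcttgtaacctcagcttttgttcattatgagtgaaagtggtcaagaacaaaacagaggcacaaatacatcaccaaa
*MKC7*: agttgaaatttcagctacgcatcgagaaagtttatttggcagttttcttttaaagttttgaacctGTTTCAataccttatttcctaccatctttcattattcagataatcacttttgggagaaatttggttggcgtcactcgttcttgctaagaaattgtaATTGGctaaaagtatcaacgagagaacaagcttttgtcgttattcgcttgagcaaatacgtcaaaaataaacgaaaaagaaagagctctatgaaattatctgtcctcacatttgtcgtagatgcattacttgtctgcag
In the *SAN1* window the capitals are AGGGG on the other strand, the letters bound by the stress factors Msn2 and Msn4, which 21.9% of the 5772 windows held. In the *MKC7* window they are TGAAAC, the letters bound by Ste12 (18.9% of windows), and CCAAT, those of the Hap complex (44.5% of windows), both on the other strand. The other letters searched were TGACTC (Gcn4 and Bas1), CACGTG (Cbf1 and Pho4), CATTCC (Tec1), GGTGGCAAA (Rpn4), TTCNNGAA (Hsf1), and GATGAG (the PAC element). No motif found overlaps another in the windows shown. A match of letters does not show a bound site.

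The total depth ranged from 6027147 to 35027485 counts per library and from 6880275 to 19056471 in the *SAN1* strain. The variance between any pair of *SAN1* libraries was 12.2 to 36.0 times that of counting alone, so none is a copy of another. Replicates 1 to 3 were closest to another *SAN1* library across ORFs, whereas replicate 4 was closest to a *ROF1* library, and counts of list members are therefore also given without it. No chromosome of a *SAN1* library was shifted beyond -0.02 to 0.05 in its median on the log2 scale. The labelled mating type was checked by its markers. *STE2* and *MFA2* of a cells were expressed in each library, while *MATALPHA1*, a regulator of α cells, had 0 to 10 counts per library. Other markers were less clear. Of the α-cell list, *STE3* had 105 to 741 counts per library and *MATALPHA2*, which shares sequence with the a locus, had 208 to 1246. Of the a-cell list, *ASG7* had only 8 to 83. Each of the other plasmid genes was also higher in its own strain than in the *SAN1* strain, without overlap, as for *SFL1* with 228 to 239 against 44.3 to 50.1 CPM.

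*SAN1* (YDR143C, chromosome IV, 742042 to 743874) was expressed at 98.7, 93.8, 104, and 96.8 CPM in the 4 libraries of its own strain. It had 38.3, 33.8, 38.2, and 39.2 CPM in the *TOS8* strain and 33.1, 38.5, 38.6, and 41.3 in the *ROF1* strain. Levels were 42.4, 39.9, 41.6, and 41.4 in the *SFL1* strain and 46.2, 45.9, 43.6, and 44.1 in the *HEK2* strain. The lowest *SAN1* library thus lay above the highest of the other 16, and the plasmid gene matched its label in each library. Against the mean of the other strains the level was 2.44-fold higher, which is 1.29 ± 0.04 (SE) as log2 fold-change. The adjusted p of this difference was 1.2e-14 by the quasi-likelihood test of edgeR. The log2 fold-change was 1.396 against *TOS8*, 1.38 against *ROF1*, 1.25 against *SFL1*, and 1.12 against *HEK2*. Plasmid and chromosomal copies give the same reads and cannot be told apart.

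*MKC7* (YDR144C, chromosome IV, 744311 to 746101) rose further than *SAN1* itself. It had 174, 176, 214, and 199.6 CPM in the *SAN1* strain, 15.1, 21.5, 18.4, and 27.7 in the *TOS8* strain, and 54.1, 47.9, 55.4, and 67.1 in the *ROF1* strain. In the *SFL1* strain it had 56.6, 60.1, 60.9, and 65.7 CPM, and in the *HEK2* strain 64.0, 69.1, 71.4, and 64.9. No other library came near the level of the *SAN1* strain, and the *TOS8* strain was the lowest. The rise over the mean of the others was 4.06-fold, or 2.02 ± 0.08 (SE) on the log2 scale (adjusted p = 2.5e-13). It ranged from 1.504 against *HEK2* to 3.17 against *TOS8*. Per length of the whole ORF, *MKC7* had 107 CPM per kb in the *SAN1* strain beside 53.6 for *SAN1*. These values were 31.3 and 20.7 in the *ROF1* strain and 37.6 and 24.5 in the *HEK2* strain. Counts are given per ORF, so they do not show which part of *MKC7* the reads cover. The ratio of *MKC7* to *SAN1* CPM was 1.94 in the *SAN1* strain, 1.48 in *ROF1*, 1.47 in *SFL1*, 1.498 in *HEK2*, and 0.55 in *TOS8*. Of the 6 yapsin genes, *MKC7* was the only one called by edgeR against the mean (16.7%, beside 3.29% of all ORFs), and the list median was 0.12. At an unadjusted p below 0.05, 3 were higher and 0 lower, and DESeq2 called 2 higher. Against single strains, 3 were higher than *TOS8* (50%, beside 30.4% of all ORFs) and 3 than *SFL1* (50% beside 9.1%). Only 1 was higher than *ROF1* (16.7% beside 0.295%) and 1 than *HEK2* (16.7% beside 11.9%).

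**Figure D1:**
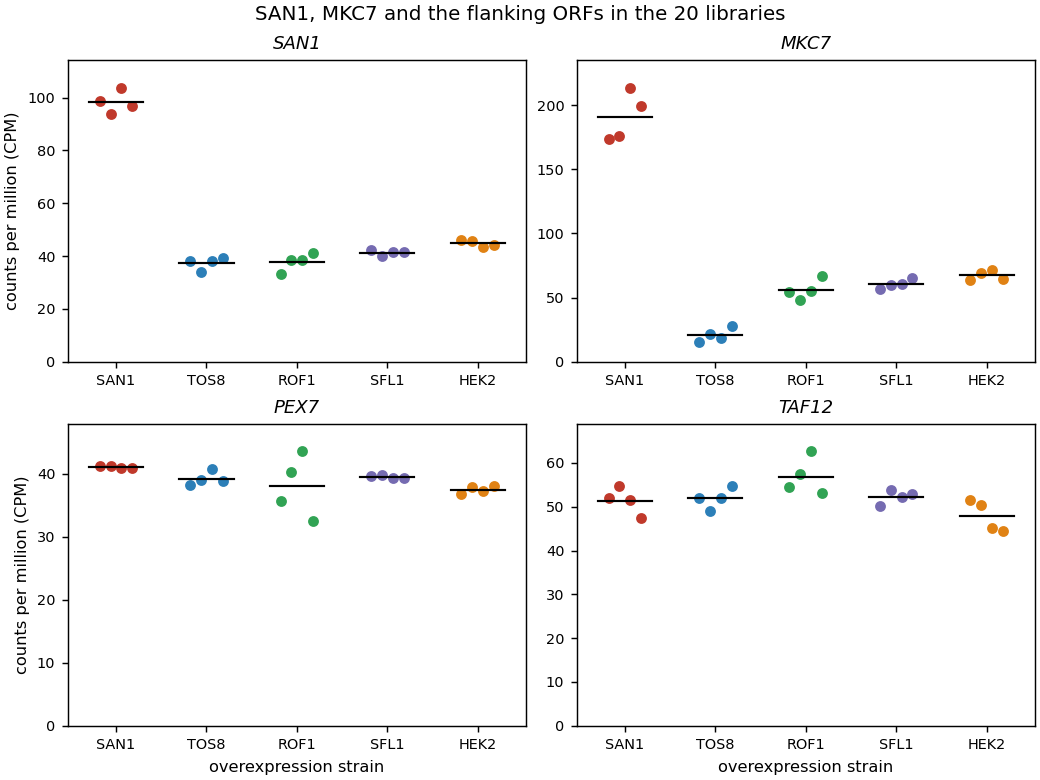
CPM of *SAN1*, *MKC7*, *PEX7*, and *TAF12* (y axes, from 0) in each of the 20 libraries, by overexpression strain (x axes); each point is a library and the bars are means of 4. *SAN1* and *MKC7* are set apart in the 4 *SAN1* libraries, with means of 98.3 and 191 CPM, whereas *PEX7* and *TAF12* overlap between strains.

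The ORFs on both sides of the pair did not pass the test against the mean. *PEX7*, which encodes a peroxisomal import receptor and starts 441 bases beyond the end of *SAN1*, had a log2 fold-change of 0.09 (adjusted p = 0.29). *TAF12*, a subunit gene of TFIID and SAGA that lies on the far side of *MKC7*, had -0.02 (adjusted p = 0.85). The next ORFs outward gave -0.11 for *DOP1*, 0.07 for *MTQ2*, and -0.18 for *SWI5*, with adjusted p-values of 0.17 or more. Which bases the plasmid carries besides the *SAN1* ORF is not given in the sources used here.

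The plus strand of the same stretch was also raised. Feature 4F-350 (chrIV:742097-742565), a noncoding transcript annotated within *SAN1* on the opposite strand, had 238, 146, 80, and 94 counts in the *SAN1* libraries and 5 to 35 in the other 16. Its log2 fold-change was 3.80 among the features that are not ORFs. 4F-352 (chrIV:743419-743980), over the start of *SAN1*, had 128, 66, 63, and 68 counts against 3 to 42, a log2 fold-change of 3.03. 4F-354 (chrIV:744252-744508) had 78, 46, 18, and 38 counts against 2 to 31, a log2 fold-change of 2.20. Scaled to its library, its level in the *SAN1* strain (251 to 404 CPM of the features that are not ORFs) did not overlap the other 16 libraries (11.6 to 122). Reads were counted by strand, so these counts are separate from those of *SAN1* and *MKC7*. These 3 were the only features besides ORFs that were higher than in each of the 4 other strains, of 4001 tested. Against the mean, 35 of the 4001 (0.875%) were called, 28 higher and 7 lower. Read against *MKC7*, 4F-354 covers the last 198 bases of its ORF (chrIV:744311-744508, minus strand), shown with the stop codon in capitals as the part of *MKC7* nearest to *SAN1*.
*MKC7* end: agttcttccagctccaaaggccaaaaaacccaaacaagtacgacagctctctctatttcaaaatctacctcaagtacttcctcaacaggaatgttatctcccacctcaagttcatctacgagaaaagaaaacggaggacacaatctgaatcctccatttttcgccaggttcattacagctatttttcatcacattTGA
Between this stop codon and the start codon of *SAN1* lie 436 bases.

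**Figure D2:**
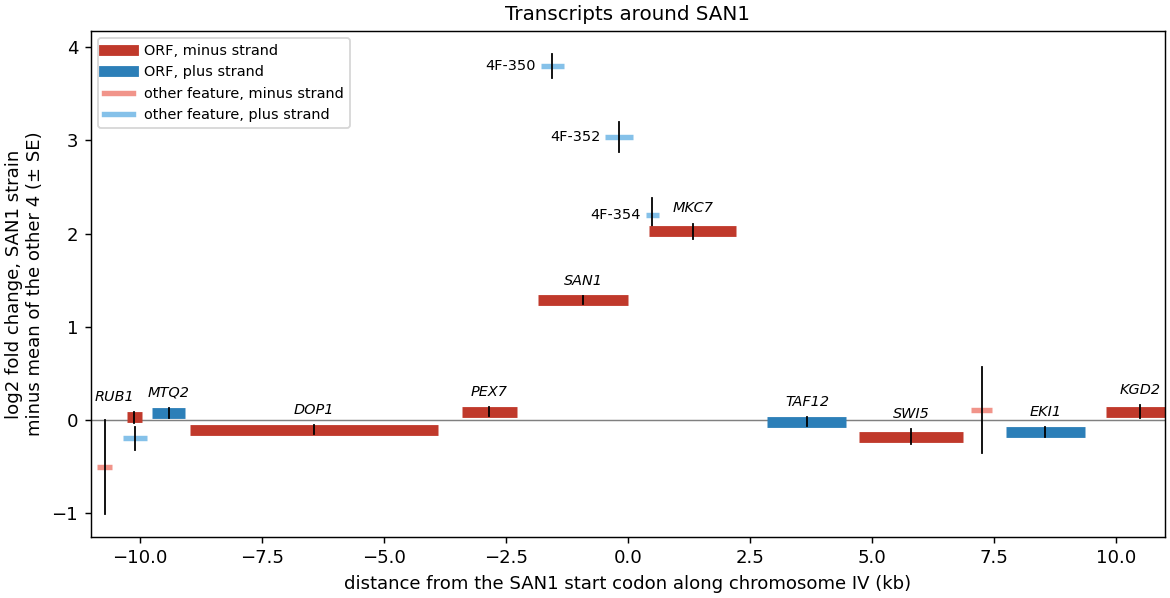
Log2 fold-change of the *SAN1* strain over the mean of the other 4 strains (y axis, vertical lines are ± SE) for ORFs and other features around *SAN1*, placed by their distance from its start codon in kb (x axis). *SAN1*, *MKC7*, and 3 plus-strand features lie between 1.29 and 3.80, and the flanking ORFs lie near 0.

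Across the genome, the *SAN1* strain was set apart by many small differences. Against the mean of the other 4 strains, 190 of the 5772 ORFs (3.29%) were called, that is, had a p below 0.01 in edgeR after adjustment for all ORFs by the method of Benjamini and Hochberg. Of these, 118 were higher (2.04% of those tested) and 72 were lower (1.25%). The rises had log2 fold-changes of 0.16 to 2.02, with a median of 0.30, and the falls had -0.89 to -0.17, with a median of -0.32. Only 20 ORFs also passed a 1.5-fold change, 14 higher and 6 lower. When library sizes were normalized over all features together, the split became 92 higher and 86 lower, or 51.7% higher in place of 62.1%, with a shift of the median ORF of -0.02 on the log2 scale. The count was 103 (59 higher, 44 lower) without *SAN1* replicate 4 and 125 (77 higher, 48 lower) without replicate 1.

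The distance from the single strains differed widely. Against *TOS8*, 1754 ORFs were called (30.4%), 887 higher and 867 lower in the *SAN1* strain. Against *HEK2* there were 688 (11.9%), 276 higher and 412 lower, and against *SFL1* 525 (9.1%), 315 higher and 210 lower. Against *ROF1* there were 17 (0.295%), 15 higher and 2 lower. In all, 2329 ORFs differed from at least 1 strain and 3443 from none, and 195 were higher than some strains and lower than others. These comparisons share the *SAN1* libraries, and the mean of the 4 contains each single strain. Of the 118 ORFs higher than the mean, 84 were also called higher than *TOS8*, 87 than *SFL1*, 63 than *HEK2*, and 7 than *ROF1*. Of the 72 lower ones, 59 were called lower than *TOS8*, 43 than *SFL1*, 47 than *HEK2*, and 1 than *ROF1*. The mean level in the *SAN1* strain was the middle of the 5 strains for 1765 ORFs, the highest for 668, and the lowest for 674.

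**Figure D3:**
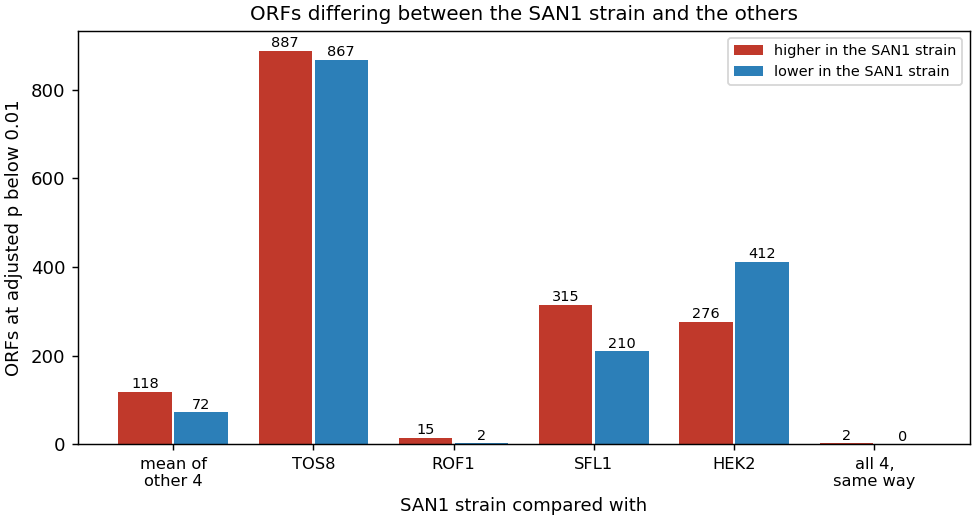
Number of ORFs called at an adjusted p below 0.01 (y axis) in each comparison of the *SAN1* strain (x axis), split into higher and lower. The counts run from 17 against *ROF1* to 1754 against *TOS8*, and 2 ORFs were higher than in all 4 strains.

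ORFs that differed the same way from all 4 strains numbered 2 of 5772 (0.0347%), *SAN1* and *MKC7*, both higher, and no ORF was lower than in all 4. At an unadjusted p below 0.05 in each of the 4 comparisons, a reading chosen after seeing the data, 45 were higher and 30 lower. DESeq2 gave 8, with *BAT2*, *LYS9*, *DMO2*, and *POL30* added as higher and *RGI1* and YER079W as lower. With the *ROF1* strain left out of the comparison there were 54, 30 higher and 24 lower. The same count made for the other strains gave 960 ORFs for *TOS8*, 53 for *SFL1*, 52 for *HEK2*, and 2 for *ROF1*. Counting overlap in place of p-values, 32 ORFs (0.554%) had all 4 *SAN1* libraries outside the range of the other 16, 15 above and 17 below, and 26 of these 32 were called against the mean.

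After *MKC7* and *SAN1*, the largest called rises among ORFs without overlap were those of *BAT2* and *LYS9*. *BAT2* (YJR148W), the cytosolic branched-chain aminotransferase that makes fusel alcohol precursors, had 701, 614, 664, and 652 CPM in the *SAN1* strain. It had 286 to 314 in the *TOS8* strain, 328 to 367 in *SFL1*, 457 to 541 in *HEK2*, and 503 to 552 in *ROF1*. Its lowest *SAN1* library lay above each of the others, and the rise was 0.67 (SE 0.05, adjusted p = 6.9e-09). It passed against *TOS8* (1.13), *SFL1* (0.89), and *HEK2* (0.35) but had an adjusted p of 0.014 against *ROF1* (0.32). *LYS9* (YNR050C), a lysine synthesis enzyme, had 726, 563, 624, and 685 CPM against 381 to 538 in the other 16 libraries, a rise of 0.49 (adjusted p = 0.0004). Its log2 fold-changes against single strains lay between 0.43 and 0.56, and only that from *ROF1* missed the threshold (adjusted p = 0.02). The start region of *BAT2* (chrX:705494-705793, plus strand) is shown as that of the largest such rise outside the plasmid locus.
*BAT2*: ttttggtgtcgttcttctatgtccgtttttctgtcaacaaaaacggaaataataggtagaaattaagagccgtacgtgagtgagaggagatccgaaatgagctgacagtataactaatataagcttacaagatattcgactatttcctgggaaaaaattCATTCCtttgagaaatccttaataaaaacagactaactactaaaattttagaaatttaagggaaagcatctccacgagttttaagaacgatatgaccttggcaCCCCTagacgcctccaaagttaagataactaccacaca
The capitals are CATTCC, the letters of Tec1 (10.3% of windows), and, after the start codon, AGGGG on the other strand.

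Genes of nucleotide supply and DNA repair were also among the ORFs without overlap. *DUT1* (YBR252W), the dUTPase that keeps uracil out of DNA, had 62.7, 55.0, 59.4, and 55.1 CPM against 38.9 to 53.4, a rise of 0.37 (adjusted p = 0.00023), and was higher than *TOS8*, *ROF1*, and *SFL1* but not past the threshold against *HEK2* (0.24, adjusted p = 0.016). *ADO1* (YJR105W), adenosine kinase, had 522, 501, 499.9, and 523 CPM against 317 to 477, a rise of 0.34. *OGG1* (YML060W), a glycosylase for oxidized guanine, had 19.0, 17.6, 20.4, and 18.1 CPM, with a lowest library of 17.65 beside 17.58 for the highest of the other 16, a rise of 0.30. *TOS4* (YLR183C), a chromatin-binding gene expressed at the G1/S transition, had 61.4, 56.7, 59.7, and 57.9 against 41.3 to 56.3, a rise of 0.28. The remaining ORFs named here were *PRY1* (YJL079C), which encodes a secreted sterol-binding protein, with 970.4, 917, 954, and 1179 CPM and a rise of 0.48, and *DMO2* (YDL157C), with 52.4, 48.3, 47.4, and 60.7 and a rise of 0.31. For *TOS4*, as for *OGG1*, the gap to the nearest library of another strain was under 1 CPM.

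Among ORFs lower without overlap, *TOS8* itself fell the most, by 0.89 on the log2 scale, a comparison that includes the strain with its plasmid. *TOS8* (YGL096W) had 53.2, 53.8, 53.8, and 53.4 CPM in the *SAN1* strain, 271 to 313 in its own strain, 84.5 to 87.3 in *SFL1*, 56.7 to 72.1 in *HEK2*, and 55.0 to 61.4 in *ROF1*. Against the last it was not past the threshold (-0.12, adjusted p = 0.3). *TSL1* (YML100W), a subunit of the trehalose synthase complex, had 204, 177, 195, and 174 CPM against 212 to 413, a log2 fold-change of -0.59 (adjusted p = 0.00038). *RGI1* (YER067W), a gene induced in respiratory growth, had 249.9, 269.6, 230.1, and 231 against 276 to 384, a log2 fold-change of -0.42. It had log2 fold-changes of -0.31 against *HEK2* to -0.58 against *TOS8* and missed the threshold against *ROF1* only (adjusted p = 0.012). YER079W, of unknown function, had 94.6, 88.8, 96.0, and 99.2 against 99.5 to 155, a log2 fold-change of -0.38, and was lower than *TOS8*, *ROF1*, and *SFL1*. *CST6* (YIL036W), a bZIP transcription factor of carbon source and CO2 responses, had 73.8, 71.1, 72.8, and 70.7 against 78.9 to 100.2 (-0.30). *CAP2* (YIL034C), the beta subunit of actin capping protein, had 106, 107, 113, and 106 against 115 to 143 (-0.25). The others were *PRP18*, a splicing factor (-0.40), *SBP1*, an RNA-binding repressor of translation (-0.22), *SIP5* (-0.24), and YGR237C (-0.25).

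**Figure D4:**
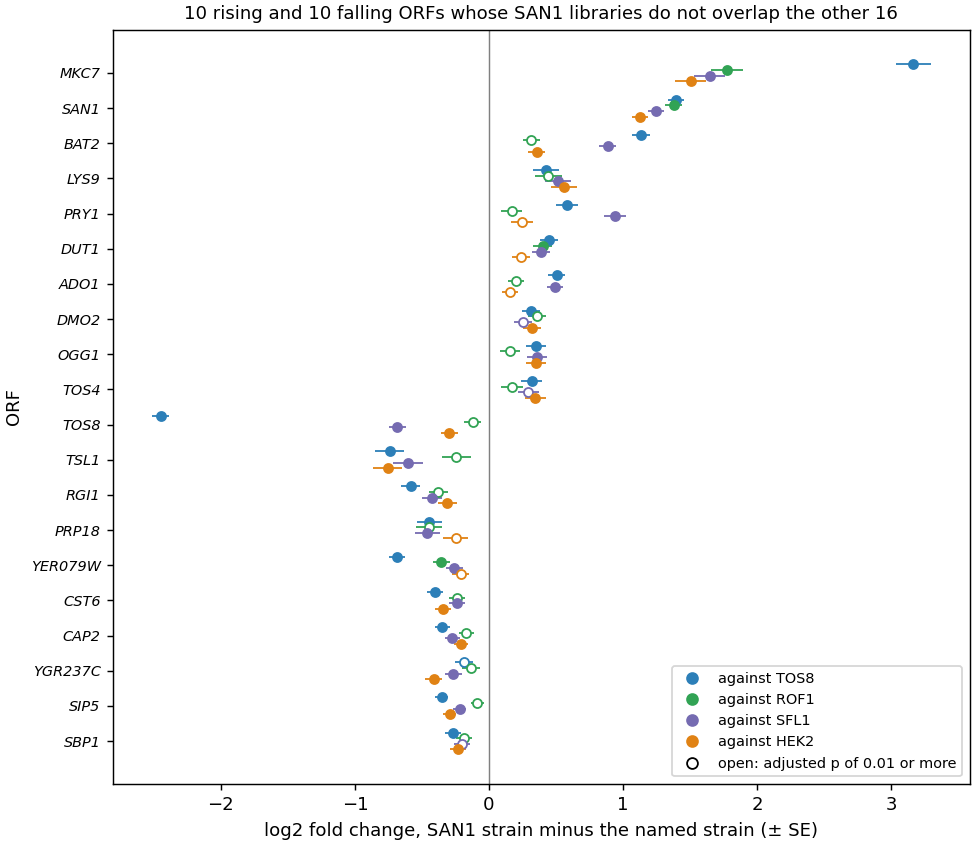
Log2 fold-change of the *SAN1* strain against each other strain (x axis, lines are ± SE) for the 10 largest rises and 10 largest falls among called ORFs whose *SAN1* libraries do not overlap the other 16 (y axis); open points have an adjusted p of 0.01 or more. Most open points are those against *ROF1*, as for *BAT2* at 0.32 and *TSL1* at -0.24.

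The closest strain was *ROF1*, and the 17 ORFs that differed from it were spread over many functions. Besides *MKC7* (1.77), *SAN1* (1.38), and *ROF1* (-1.53), 13 were higher. The largest of these were *SHM2*, the cytosolic serine hydroxymethyltransferase, at 0.68 (adjusted p = 0.0068) and *MTD1*, a methylenetetrahydrofolate dehydrogenase, at 0.60. *SHM2* had 1430.4, 1330.4, 1398, and 1091 CPM in the *SAN1* strain and 723, 693, 862, and 992 in *ROF1*, without overlap. Its levels in the *SFL1* (1168 to 1412) and *HEK2* (1198 to 1637) strains overlapped those of *SAN1*, so this difference did not hold against all strains. *CTP1*, the mitochondrial citrate carrier, was 0.56 higher, *GDH3*, a glutamate dehydrogenase, 0.51, and *LYS20*, a homocitrate synthase, 0.41. Transporters were *ARN1* for siderophores (0.42), *VHT1* for biotin (0.39), and *MEP3* for ammonium (0.36). The others were YNL095C (0.48), *NIP7* (0.47), *DUT1* (0.40), *NAR1* (0.40), and *TOM6* (0.37). YER079W was lower (-0.36). The count rested on few libraries and settings, and it was 3 with only the 8 libraries of both strains or without *SAN1* replicate 1, 59 without *HEK2* replicate 4, 116 without *ROF1* replicate 4, and 175 with DESeq2.

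Among lists with few or no calls against *ROF1*, several had most members above 0, where 2842 of all 5772 ORFs were. Of 138 ribosomal protein genes, none was called by edgeR, but 137 had a positive log2 fold-change against *ROF1*, with a median of 0.20 beside -0.0026 for all ORFs. At an unadjusted p below 0.05, 95 were higher and 0 lower (595 and 526 of all ORFs), and DESeq2 called 33 higher (142 of all ORFs). Of 32 purine synthesis genes 30 were above 0 (median 0.27), with 21 higher and 1 lower at an unadjusted p below 0.05, and DESeq2 called 12, edgeR none. Of 57 genes of amino acid synthesis outside the arginine and sulfur paths 53 were above 0 (median 0.20), and DESeq2 called 14, edgeR 2. With TMM over all features, 137, 29, and 52 genes of these lists were above 0, and the median of the ribosomal protein genes was 0.18 beside -0.02 for all ORFs. Arginine synthesis had 13 of 15 above 0 (median 0.26), pyrimidine synthesis 16 of 17 (0.16), serine, glycine, and one-carbon metabolism 23 of 26 (0.16), and nitrogen catabolism and permeases 38 of 47 (0.13). Trehalose and glycogen genes lay on the other side, with 1 of 23 above 0 (median -0.11). These lists were singled out after their values were seen, and genes of a list are not independent of each other.

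With *ROF1* as the exception, 28 ORFs were higher than in *TOS8*, *SFL1*, and *HEK2* alike and 24 were lower, whereas 2 further ORFs, *DUT1* and *MEP3*, were higher than in all but *HEK2*. Among the 28 were the mating genes *BAR1*, *MFA2*, *FUS1*, *AGA2*, *AFB1*, and the α-factor gene *MF(ALPHA)1*. Cell surface and polarity genes were present as well, with *MSB2*, *SHO1*, *AXL2*, *BUD8*, *FKS1*, and *CHS3*. The 24 lower ORFs held *RNR2*, a small subunit gene of ribonucleotide reductase (-0.28 against the mean), *PCT1* of phosphatidylcholine synthesis (-0.26), *CUE5*, a ubiquitin-binding autophagy receptor (-0.28), and *HAL5*, a kinase of potassium transport (-0.22). These lists were read after the values were known.

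Genes of pheromone response and mating were higher in part. Of 44 tested, 8 (18.2%, beside 2.04% of all ORFs) were higher than the mean and none lower, with a median log2 fold-change of 0.14, beside 0.00279 for all ORFs. *MFA2* (YNL145W), a gene for the a-factor pheromone, had 386, 249.5, 311, and 286 CPM in the *SAN1* strain, 131 to 173 in *TOS8*, 129 to 152 in *SFL1*, 165.1 to 231 in *HEK2*, and 233 to 418 in *ROF1*. Its *SAN1* libraries lay above those of *TOS8*, *SFL1*, and *HEK2* and within the range of *ROF1*, and the rise was 0.66 (SE 0.11, adjusted p = 0.00089). *BAR1* (YIL015W), the protease that degrades α factor, had 27.3, 23.3, 23.7, and 32.9 against 8.39 to 13.3 in *TOS8*, 11.4 to 13.0 in *SFL1*, 13.0 to 17.1 in *HEK2*, and 22.9 to 30.9 in *ROF1*, a rise of 0.77. *FAR1*, which arrests the cycle in response to pheromone, rose by 0.59, and *PRM5*, a pheromone-regulated membrane protein gene, by 0.55. *AGA2* (0.47), *MFA1* (0.41), *STE3* (0.37), which encodes the receptor that α cells use, and *STE2* (0.29) completed the 8. Against *TOS8*, 12 were higher and 1 lower, which is 29.5% of the list beside 30.4% of all ORFs. Against *SFL1* they were 15 and 0 (34.1% beside 9.1%), against *HEK2* 12 and 3 (34.1% beside 11.9%), and against *ROF1* 0 and 0, where an unadjusted p below 0.05 gave 1 and 3 and DESeq2 0.

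Cell type markers were summed as well, but the a-cell sum holds *MFA1*, *MFA2*, *STE2*, *BAR1*, and *AGA2*, so it repeats values given above. The summed level of 7 a-cell markers, in CPM of the library total without TMM scaling, was 649.9 to 762 CPM in the *SAN1* strain and 652 to 831 in *ROF1*. It was 348 to 449 in *TOS8*, 433 to 489 in *SFL1*, and 458 to 589 in *HEK2*, so the *SAN1* and *ROF1* strains stood above the rest. The remaining a-cell markers did not separate the strains in this way. *STE6* had 47.2 to 55.1 in the *SAN1* strain, which overlapped *SFL1* (47.8 to 51.3) and *HEK2* (38.3 to 51.4) but not *TOS8* (37.8 to 46.6). *ASG7* overlapped each other strain. The 5 α-cell markers summed to 66.9 to 85.04 in the *SAN1* strain, 69.8 to 80.1 in *TOS8*, 77.0 to 84.1 in *ROF1*, 56.7 to 64.7 in *SFL1*, and 56.1 to 61.5 in *HEK2*, and most of this came from *STE3* and from *MATALPHA2*, which shares sequence with the a locus. The 5 sporulation markers summed to 35.9 to 47.6 in the *SAN1* strain, 26.2 to 32.3 in *TOS8*, 44.8 to 51.2 in *ROF1*, 32.2 to 35.4 in *SFL1*, and 27.0 to 36.2 in *HEK2*. The part of these markers in the results was not tested. The *MFA2* window (chrXIV:352164-352463, plus strand) is shown because the letters of Ste12 are frequent in the group.
*MFA2*: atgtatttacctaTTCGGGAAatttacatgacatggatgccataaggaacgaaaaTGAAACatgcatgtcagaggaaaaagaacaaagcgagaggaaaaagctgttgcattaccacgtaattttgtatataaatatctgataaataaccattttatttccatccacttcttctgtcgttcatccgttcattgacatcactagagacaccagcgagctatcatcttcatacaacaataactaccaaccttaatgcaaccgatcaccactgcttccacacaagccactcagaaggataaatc
The capitals are TTCNNGAA (13.0% of windows) and TGAAAC. The latter stood in 29 of the 44 windows of this list (65.9%) and in 18.9% of all windows. Without *SAN1* replicate 4, 6 genes of the list were called higher and none lower, and without the *ROF1* strain 13 and none.

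Filamentous growth genes were higher in part. Of 33 tested genes of the filamentation MAPK pathway and its targets, 9 were higher and 1 lower than the mean (30.3%, beside 3.29% of all ORFs), with a median of 0.18. The sensors *MSB2* (0.34) and *SHO1* (0.28) were higher, as were the polarity gene *AXL2* (0.37), the mannosyltransferase gene *KTR2* (0.33), and *CHS7* (0.26), which exports chitin synthase from the endoplasmic reticulum. *NFG1* (YLR042C), a negative regulator of filamentous growth, had 74.6, 98.6, 80.1, and 78.8 CPM, with 109.6 to 147 in *ROF1* and 59.9 to 102 in *TOS8* but only 17.5 to 21.7 in *SFL1* and 13.7 to 24.1 in *HEK2*. It rose against the mean (0.91) and, among single strains, was called against the last pair only. *PRY2* (0.51) was likewise called higher than *SFL1* and *HEK2* only, and *PRY3* (-0.57), which encodes a cell wall protein of daughter cells, lower than these only. *DDR48* (0.49), a stress gene, was higher than both but lower than *TOS8* (-0.44). Against *SFL1* 16 were higher and 1 lower (51.5%, beside 9.1% of all ORFs), and against *HEK2* also 16 and 1 (51.5% beside 11.9%). Against *TOS8* there were 7 and 6 (39.4% beside 30.4%). Against *ROF1* there were 0 and 0 (2 and 10 at an unadjusted p below 0.05, 1 and 2 with DESeq2). Without *SAN1* replicate 4, 4 were called higher and 1 lower. Against the mean of 3 strains, 1 was higher and none lower without *SFL1* (median 0.08), 5 and 0 without *HEK2*, 9 and 1 without *TOS8*, and 15 and 1 without *ROF1*.

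*FLO11* (YIR019C, chromosome IX), the flocculin that holds fluffy colonies together, had 6995, 9636, 7215, and 7608 CPM in the *SAN1* strain. Levels were 12087, 12537, 12974, and 10059 in *ROF1*, 5783, 6459, 6040.2, and 7249 in *TOS8*, 3508, 4849.8, 4803, and 3499 in *HEK2*, and 733, 854, 927, and 741 in *SFL1*. The *SAN1* libraries lay below those of *ROF1*, overlapped those of *TOS8*, and lay above the other strains. The log2 fold-change against the mean was 0.97 (SE 0.10, adjusted p = 1.3e-06), but without the *SFL1* strain it was 0.21 (adjusted p = 0.22). Against single strains it was 3.27 for *SFL1* (adjusted p = 5.1e-13), 0.92 for *HEK2* (6.2e-05), 0.30 for *TOS8* (0.061), and -0.60 for *ROF1* (0.019). Of 41 flocculins and *FLO11* regulators, 2 were higher and 4 lower than the mean (14.6%, beside 3.29% of all ORFs). Of the latter, 3 were the plasmid genes *TOS8*, *SFL1*, and *HEK2*. The strains that overexpress them are part of that mean, so these 3 falls were set by the comparison. The fourth was *MIT1*, an activator of pseudohyphal growth, with 109, 111, 129, and 106 CPM and -0.32, and the second rise was *CUP9*, the paralog of *TOS8*, at 0.35, or 0.17 without the *TOS8* strain (adjusted p = 0.089).

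**Figure D5:**
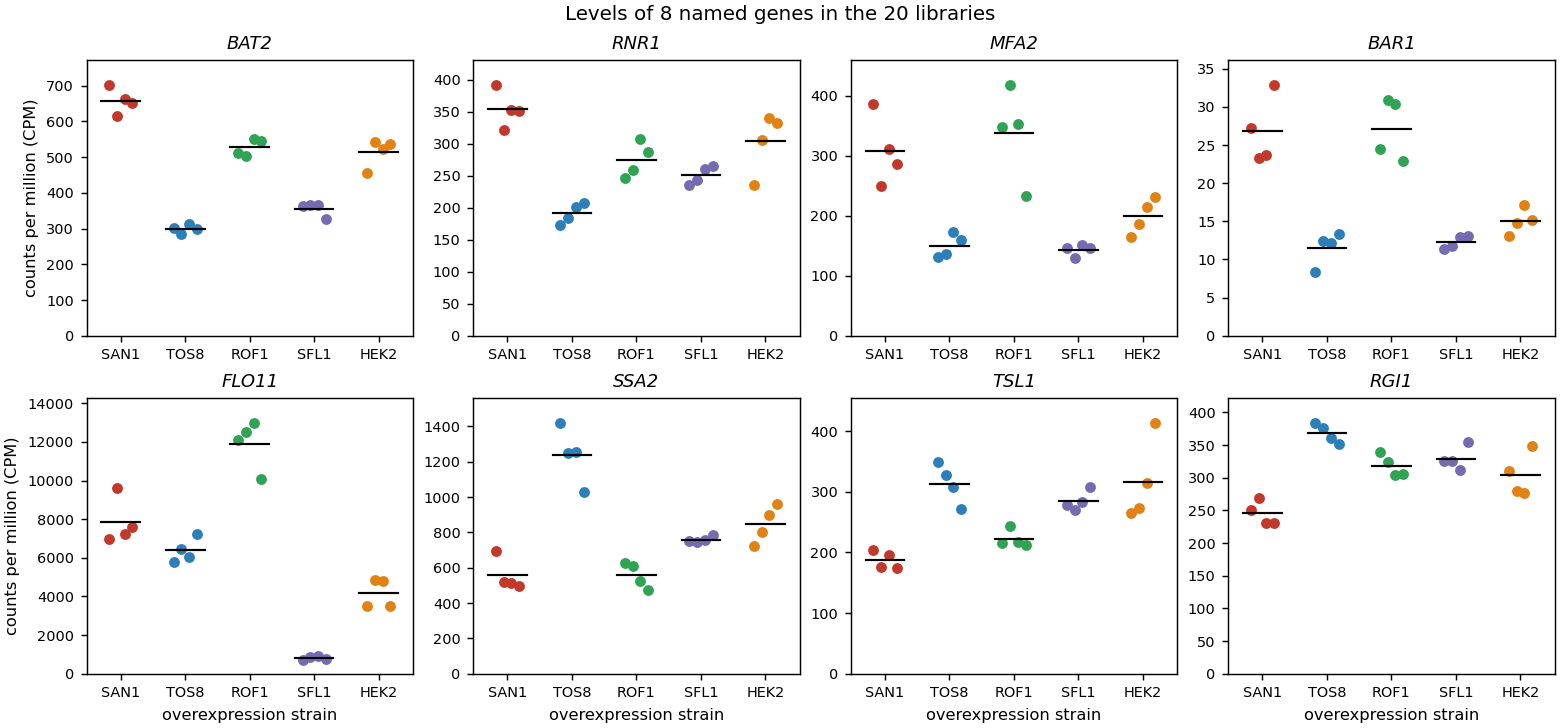
CPM (y axes, from 0) of 8 genes in each of the 20 libraries by overexpression strain (x axes); each point is a library and the bars are means of 4. *BAT2* and *RGI1* set the *SAN1* libraries apart from all others, whereas *MFA2*, *BAR1*, and *SSA2* overlap between *SAN1* and *ROF1*.

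Of 62 cell wall genes, 6 were higher and 1 lower than the mean (11.3%, beside 3.29% of all ORFs), but this count rested on the *SFL1* strain. Without that strain 1 was higher and 3 were lower. Against single strains there were 20 higher and 5 lower than *SFL1* (40.3%, beside 9.1% of all ORFs). There were 14 and 9 against *TOS8* (37.1% beside 30.4%) and 10 and 9 against *HEK2* (30.6% beside 11.9%). Against *ROF1* there were 0 and 0 (4 and 6 at an unadjusted p below 0.05, 1 and 4 with DESeq2). *FKS1*, the main β-glucan synthase gene, had 841, 810.4, 738, and 750.1 CPM against 559 to 604 in *TOS8*, 584 to 674 in *SFL1*, 625 to 657 in *HEK2*, and 674 to 753 in *ROF1*, a rise of 0.29 (adjusted p = 0.00052). *SCW10*, a cell wall glucanase (0.32), *CRH1*, a chitin transglycosylase (0.23), and *CHS3*, the main chitin synthase (0.20), were higher, and *TIR3*, a mannoprotein gene of hypoxia, was lower (-0.39). Without *SAN1* replicate 4 the count was 2 higher and 1 lower. Protein glycosylation and export genes, picked after their values were seen and in no list, were among those called higher. They were *PMT4* (0.32) and *PMT5* (0.21) of O-mannosylation, *OST6* (0.22), *CWH41* (0.25), and *CNE1* (0.21) of N-glycosylation and folding, *SEC11* of signal peptidase (0.24), and *ERP3* (0.23) and *ERP4* (0.26) of vesicle transport, whereas *KAR2* of the endoplasmic reticulum was lower. *PMT4* had 289, 307, 293, and 279.7 CPM against 161 to 188 in *TOS8* and 249.9 to 283 in *ROF1*, so the *SAN1* libraries were near those of *ROF1*. Fatty acid synthesis belonged to the same after-the-fact set, with *ACC1* (0.32), *FAS1* (0.31), and *FAS2* (0.26). *CHO2*, which methylates phosphatidylethanolamine, rose by 0.47.

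Nucleotide synthesis genes were higher in part. Of 32 purine genes 4 were higher and 1 lower than the mean (15.6%, beside 3.29% of all ORFs), with a median of 0.15, and of 17 pyrimidine genes 3 were higher and none lower (17.6%), with a median of 0.12. *ADE17*, which catalyzes the last steps to IMP, had 841, 993, 956, and 759.6 CPM against 440.2 to 485 in *TOS8* and 771 to 1017 in *HEK2*, and it rose by 0.39, with 0.94 against *TOS8*, the only single strain against which it was called, and -0.03 against *HEK2*. The salvage genes *APT1* (0.37) and *HPT1* (0.23) joined *ADO1*, and *HPT1* had 577, 555, 580.1, and 530.4 CPM, above the other 16 libraries (406 to 528). *PHO2*, a transcription factor shared with phosphate genes, was lower (-0.24). *URA4* (0.24) and *URA5* (0.16), of pyrimidine synthesis, joined *DUT1*. Without *SAN1* replicate 4 the counts were 3 and 0 for purines and 3 and 0 for pyrimidines.

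Some genes that act in S phase were called. *RNR1* (YER070W), the large subunit of ribonucleotide reductase, had 391, 322, 352.1, and 351 CPM against 173 to 207 in *TOS8*, 236 to 265 in *SFL1*, 247 to 307 in *ROF1*, and 236 to 340.1 in *HEK2*. It overlapped the last strain alone, and the rise was 0.49 (adjusted p = 0.00036). *POL30*, which encodes PCNA, had 109.6, 99.2, 91.9, and 106 against 74.5 to 91.8, above all others by a margin of under 1 CPM, and rose by 0.28. *POL1*, of DNA polymerase α, rose by 0.25, and *RAD27* (0.23) and *CTF4* (0.21) were named after their values were seen. *RNR2* moved the other way, with 687, 642, 699, and 572 CPM and -0.28. The histone gene *HTB1* was lower (-0.20), and the log2 fold-changes of all 10 histone genes were below 0, at -0.22 to -0.03, where 2826 of all 5772 ORFs were below 0. Only *HTB1* was called, and not without *SAN1* replicate 4. Of 41 cyclin and cell cycle genes, 4 were higher and 1 lower (12.2%, beside 3.29% of all ORFs), and their median was -0.03. Without *SAN1* replicate 4 the counts were 2 and 1.

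Few genes of amino acid and nitrogen metabolism were called against the mean, at shares near the 3.29% of all ORFs. Of 57 genes of amino acid synthesis outside the arginine and sulfur paths, 3 were higher and none lower (5.26%), *BAT2*, *LYS9*, and *LYS12* (0.27). *LYS12*, the homoisocitrate dehydrogenase of lysine synthesis, had 390.3, 357, 356, and 389 CPM against 249 to 348. Against single strains this list split, with 27 higher and 3 lower than *TOS8* (52.6%, beside 30.4% of all ORFs). There were 2 and 19 against *HEK2* (36.8% beside 11.9%), 3 and 4 against *SFL1* (12.3% beside 9.1%), and 2 and 0 against *ROF1* (3.51% beside 0.295%). Of 47 nitrogen catabolism and permease genes 3 were higher (6.38%), which were *ALP1*, a basic amino acid permease (0.75), *OPT2* of the oligopeptide transporter family (0.36), and *MEP3* (0.25). *ALP1* had 84.7, 52.4, 56.8, and 81.9 CPM against 29.8 to 62.6 in the other 16 libraries, and it overlapped *ROF1* alone. *OPT2* had 2369.9, 2343, 2691, and 2365 CPM, against 775 to 1069.9 in *TOS8* and 2468 to 2713 in *SFL1*, and without the *TOS8* strain the difference was -0.0035. Among 26 serine, glycine, and one-carbon genes 1 was higher, *AGX1* (0.36), which makes glycine from glyoxylate. *SHM2* had 0.29 against the mean (adjusted p = 0.045). Of 33 sulfate and methionine genes 1 was lower, the sulfate permease *SUL2* (-0.32), and none of 15 arginine genes was called (1 higher and 1 lower at an unadjusted p below 0.05, 0 with DESeq2). *LYS12*, *MEP3*, *AGX1*, and *SUL2* were not called without *SAN1* replicate 4, where the nitrogen list had 4 higher.

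Genes of nuclear protein quality control, the process in which San1 works, held no called rise. Of 38 genes tested, none was higher and 3 were lower than the mean (7.89%, beside 3.29% of all ORFs), with a median of -0.07. At an unadjusted p below 0.05 the counts were 2 and 13, and with DESeq2 they were 0 and 4. The 3 called lower by edgeR were *UBC4*, a ubiquitin-conjugating enzyme, and the Hsp70 genes *SSA1* and *SSA2*. *UBC4* (YBR082C) had 185, 163, 163.8, and 139 CPM, with 289 to 347 in *TOS8*, 182 to 204 in *ROF1*, 192 to 208 in *SFL1*, and 171 to 189.7 in *HEK2*, which is -0.40 ± 0.06 (SE) on the log2 scale (adjusted p = 0.0003). It was past the threshold against *TOS8* alone (-0.92). The partner enzymes of San1 had -0.11 for *CDC34* (adjusted p = 0.33) and 0.02 for *UBC1* (adjusted p = 0.84). The polyubiquitin gene *UBI4* had -0.06 (adjusted p = 0.73) and *SIR4* 0.01 (adjusted p = 0.96). Of 28 silencing and telomere genes 1 was higher, *ESC8* (0.28), a share of 3.57% beside 3.29% of all ORFs. Of 47 proteasome genes 1 was lower (2.13%), *RPT2* (-0.17), and neither it nor *ESC8* was called without *SAN1* replicate 4. Their activator *RPN4* had -0.20 (adjusted p = 0.21).

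Chaperones were lower chiefly in relation to the *TOS8* strain. Of 42 heat shock and chaperone genes, 4 were lower and none higher than the mean (9.52%, beside 3.29% of all ORFs), with a median of -0.14. *SSA2* (YLL024C) had 695, 519, 514, and 496 CPM in the *SAN1* strain, 473 to 628 in *ROF1*, 745 to 783 in *SFL1*, 725 to 962 in *HEK2*, and 1031 to 1418 in *TOS8*. Replicate 1 was the highest of the 4 *SAN1* libraries, and the strain overlapped *ROF1* and lay below the rest. Its log2 fold-change was -0.55 (adjusted p = 0.00096), and that of *SSA1* was -0.44, but the pair are near-identical copies whose counts may be exchanged by the mapping. *HSC82* (-0.40), an Hsp90 gene, and *KAR2* (-0.26), the Hsp70 of the endoplasmic reticulum, were lower too. *HSP104*, the disaggregase, had -0.33 (adjusted p = 0.016). Against *TOS8*, 28 of the 42 were lower and 4 higher (76.2%, beside 30.4% of all ORFs), with a median of -0.57. Against *ROF1* edgeR called none (3 and 3 at an unadjusted p below 0.05) and DESeq2 3 higher. Against *SFL1* 3 were higher and 2 lower (11.9% beside 9.1%), and against *HEK2* 1 was higher and 2 lower (7.14% beside 11.9%). Without the *TOS8* strain no gene of either list was called against the mean of the other 3 (at an unadjusted p below 0.05, 5 higher and 9 lower of the heat shock list and 4 and 8 of nuclear quality control), and without *SAN1* replicate 4 the heat shock list had 1 lower.

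Trehalose and glycogen genes were lower in part. Of 23 tested, 21 had a log2 fold-change below 0 against the mean, where 2826 of all 5772 ORFs did, and the median was -0.16. In the test, 4 were lower and none higher than the mean (17.4%, beside 3.29% of all ORFs). They were *TSL1*, *TPS3* (-0.40), and *TPS1* (-0.33) of the trehalose synthase complex and the phosphoglucomutase gene *PGM2* (-0.49). *TPS1* had 402, 374, 381, and 357 CPM, with 469 to 533 in *TOS8*, 435 to 498 in *SFL1*, 506 to 681 in *HEK2*, and 381 to 416 in *ROF1*. *PGM2* had 189, 199.7, 204, and 180.5 CPM, close to *TOS8* (196 to 228) and *ROF1* (198 to 249) and below *SFL1* (336 to 409) and *HEK2* (298 to 408). Against *HEK2* 13 of the list were lower (56.5%, beside 11.9% of all ORFs), and against *SFL1* 5 were lower (21.7% beside 9.1%). Against *TOS8* 8 were lower and 3 higher (47.8% beside 30.4%). Against *ROF1* none was called by edgeR or DESeq2, with 6 lower at an unadjusted p below 0.05. Without *SAN1* replicate 4, 3 were lower. The *TSL1* window (chrXIII:70374-70673, plus strand) is shown because it holds AGGGG in 3 places.
*TSL1*: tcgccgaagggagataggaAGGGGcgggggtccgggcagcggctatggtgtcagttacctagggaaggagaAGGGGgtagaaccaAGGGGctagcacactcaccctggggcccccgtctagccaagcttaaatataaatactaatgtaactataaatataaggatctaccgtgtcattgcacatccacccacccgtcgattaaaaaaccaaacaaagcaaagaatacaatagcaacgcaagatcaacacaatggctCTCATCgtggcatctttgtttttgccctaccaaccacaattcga
The capitals are AGGGG and, after the start codon, GATGAG on the other strand (19.7% of windows). AGGGG stood in 11 of the 23 windows of this list (47.8%) and in 21.9% of all windows.

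Stress and detoxification genes changed in single members. *AHP1*, a thiol peroxidase, had 115, 157, 116, and 117 CPM against 129.99 to 145 in *ROF1*, 179 to 201 in *SFL1*, 199.7 to 251 in *TOS8*, and 226 to 286 in *HEK2*, a log2 fold-change of -0.62 (adjusted p = 4.5e-05). *GPX1*, a glutathione peroxidase, rose by 0.52, and the other 32 of 34 antioxidant genes were not called. The called share of that list was 5.88%, beside 3.29% of all ORFs. *PDR12*, the exporter of weak organic acids, had 184, 168, 170.1, and 156 CPM, below *TOS8* (209.6 to 303), *HEK2* (222 to 294), and *SFL1* (333 to 371) and overlapping *ROF1* (169.8 to 214), a log2 fold-change of -0.61. *CYC7*, the cytochrome c isoform of low oxygen, had -0.47 against the mean, and was called against *TOS8* alone (-1.31). *GPD1* of glycerol synthesis (-0.31) and the nicotinamidase gene *PNC1* (-0.30) were lower.

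Iron, phosphate, and vitamin lists held a few called genes. Of 42 iron genes 5 were higher and none lower (11.9%, beside 3.29% of all ORFs), with a median of 0.14. *FTR1*, the iron permease, had 216, 171, 197, and 263 CPM, with 184 to 251 in *TOS8*, 149 to 171 in *ROF1*, 133 to 148 in *HEK2*, and 116 to 131 in *SFL1*, a rise of 0.44. *FRE1*, a ferric reductase, had 432, 458, 491, and 572 CPM and rose by 0.43. Replicate 4 was the highest *SAN1* library for both, and without it no gene of the list was called by edgeR (15 higher and 1 lower at an unadjusted p below 0.05). Of 29 phosphate genes 2 were higher, *GIT1* and *PHO87* (0.17), and *PHO2* was lower (10.3%, beside 3.29% of all ORFs). Only *GIT1* was called without replicate 4. *GIT1*, a glycerophosphoinositol transporter, had 38.9, 39.0, 45.6, and 38.3 CPM with 8.65 to 11.4 in *TOS8* and 46.8 to 52.8 in *ROF1*, and it had 0.64 against the mean, with 1.99 against *TOS8*. Without the *TOS8* strain it had 0.20 (adjusted p = 0.23), so its call rested on that strain. Of 34 genes of thiamine, vitamin B6, and NAD, 2 were higher and *PNC1* was lower (8.82%, beside 3.29% of all ORFs). Without replicate 4 the counts were 0 and 1 (13 and 3 at an unadjusted p below 0.05). *THI4* of thiamine synthesis rose by 0.60 at low levels (7.31, 7.32, 7.06, and 10.9 CPM), with replicate 4 the highest. *THI12* (0.45) belongs to a family of near-identical genes whose reads cannot be assigned with certainty.

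Some calls against the mean rested on single strains. Of 85 named and called genes besides *SAN1* and *MKC7*, 25 missed the threshold without the *TOS8* strain, 21 without *SFL1*, 17 without *HEK2*, and 1 without *ROF1*, and 27 to 35 did without a single *SAN1* library. The aquaporin gene *AQY1* had 100.2, 98.3, 92.5, and 147 CPM in the *SAN1* strain and 17.9 to 20.4 in *SFL1*, with 65.9 to 88.3 in *TOS8*, 77.2 to 123 in *ROF1*, and 98.9 to 123 in *HEK2*. Its rise of 0.79 was lost without the *SFL1* strain (0.21, adjusted p = 0.24), as was that of *AQY2* (0.66), whose ORF overlaps YLL053C on the same strand. *CSS1*, named after its values were seen, had 253, 339, 411, and 265 CPM, near *TOS8* (262 to 323) and *ROF1* (231 to 511) and below *SFL1* (796 to 1010.5) and *HEK2* (956 to 1394), a log2 fold-change of -0.84. A further 36 ORFs were higher than in *TOS8* and lower than in *SFL1* and *HEK2*, such as *MET3*, *MET5*, *HOM2*, and *SER33* of amino acid synthesis and the hexose transporter genes *HXT13* and *HXT17*, and 9 had the reverse order, such as *DDR48*. For these the *SAN1* strain lay between the others.

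Several large classes held no gene called by edgeR against the mean. Of 138 ribosomal protein genes (median 0.07), 24 were higher and 2 lower at an unadjusted p below 0.05, and DESeq2 called 1. Of 125 ribosome biogenesis genes (median -0.01), these counts were 1 and 0, with 0 by DESeq2. They were 3 and 2 for 22 zinc genes, with 0 by DESeq2, and 2 and 7 for 35 genes of hexose transport and glucose sensing, with 2 by DESeq2. All 3 ammonium and acetate exporters had 0 by each reading against the mean. Differences from single strains were present in the same lists and had opposite signs in some. Ribosome biogenesis had 40 lower and 0 higher than *TOS8* (32%, near the 30.4% of all ORFs). Against *HEK2* it had 3 higher and 0 lower (2.4%, below the 11.9% of all ORFs). Hexose transport had 10 higher and 3 lower than *TOS8* (37.1%, beside 30.4% of all ORFs). It had 1 and 11 against *HEK2* (34.3% beside 11.9%) and 1 and 9 against *SFL1* (28.6% beside 9.1%). Each exporter was lower than in *TOS8* (median -1.37), and 1 was higher than in *SFL1* and 1 than in *HEK2*. Ribosomal proteins had 18 higher and 6 lower than *TOS8* (17.4%, below the 30.4% of all ORFs). Against the mean, 2 of 62 genes of the TCA cycle and respiratory chain were lower, *CYC7* and *HAP2* (3.23%, beside 3.29% of all ORFs). Of 42 genes of gluconeogenesis, the glyoxylate cycle, and fatty acid oxidation 2 were higher (4.76%), *PYC1* (0.29) and *PEX11* (0.38). Of 43 meiosis and sporulation genes, *SPS1* (0.49) and *SSP1* (0.49) were higher (4.65%), at 14.8, 11.7, 15.1, and 15.5 and 10.6, 14.6, 13.4, and 13.4 CPM. *TIF4632*, one of the eIF4G genes, was the only called gene of 37 in translation (-0.33), or 2.7%. *PDR11* was the only one of 39 in sterol metabolism and hypoxia (-0.35), or 2.56%. Without *SAN1* replicate 4, *HAP2*, *PEX11*, *TIF4632*, and *PDR11* were not called. Among called ORFs in no list, named after their values were seen, *BMH2*, a 14-3-3 gene (-0.39), *SFK1* (-0.46), *DCS1* of mRNA decapping (-0.29), *SCD6*, a translation repressor (-0.27), and *CRZ1*, the calcineurin-dependent transcription factor (-0.25), were lower.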

How the data were processed

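Whole colonies of 5 overexpression strains were measured by stranded mRNA-seq in 4 samples each. The authors mapped read pairs with Bowtie2 2.1.0 to an S288c R64 reference extended with noncoding RNAs and F45 genes, and counted them by strand with featureCounts 1.4.0, with no filter on mapping quality. The deposited values are raw counts per feature for 12131 features, and tests were run on these counts. Groups came from the labels. ORFs were fitted in 1 model with a mean per strain (edgeR 4.0.16, quasi-likelihood F-test, TMM within ORFs, Benjamini-Hochberg adjustment, threshold 0.01, R 4.3.3). The other features were fitted separately, without 90 spike-in rows. DESeq2 1.42.0, a likelihood ratio test, other scalings and filters, a replicate block, and leaving out libraries or strains were alternatives. Scripts were tested on simulated data.

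The comparison and the gene lists were chosen with earlier results of these data known. The rule for genes named took the 5 plasmid genes, the 3 ORFs on each side of *SAN1*, the 10 largest called rises and the 10 largest called falls without overlap between the *SAN1* and the other libraries, ORFs that differed the same way from all 4 strains, up to 4 called members of each list in each direction, and *SHM2*, *FLO11*, *RPN4*, *HSP104*, *UBI4*, *UBC1*, *CDC34*, and *SIR4* whatever their values. Any other gene or feature was named after its values were seen, which holds for most of those called against *ROF1*. The counts of list members at an unadjusted p below 0.05, by DESeq2 and by other scalings, and without *SAN1* replicate 4, were added after seeing the data. Sequences are from RefSeq's R64 assembly, read at the coordinates of the deposited counts. Gene symbols were taken from RefSeq by systematic name, which matched for 5900 ORFs. The SE reflects the spread between samples.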

Additional observations from a re-analysis of the deposited data

Results flagged for a closer look

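In 12 of 113 groups of 4 libraries tested, 1 library lay further from the rest than Dixon's limit of 0.829, given as its gap over the range of the 4. The groups were the named genes in the *SAN1* strain, *SAN1* and *MKC7* also in the other strains, and the total counts of each strain. All 12 were genes in the *SAN1* strain. Chance gives about 1 in 20 groups. The library apart was replicate 1 in 2 genes, replicate 2 in 3, replicate 3 in 4, and replicate 4 in 3. Replicate 1 was high for both Hsp70 genes, with 1292 CPM for *SSA1* against 935 to 984 in the other 3 (0.862) and 695 for *SSA2* against 496 to 519 (0.882), near-identical copies that share reads. Replicate 4 was high for *AQY1* (0.859), *THI4* (0.931), and *ESC8* (0.903), as with 147 CPM of *AQY1* against 92.5 to 100.2. Replicate 3 was high for *CAP2* (0.844), *OPT2* (0.924), and *GIT1* (0.904) and low for *PRP18* (0.861). Replicate 2 was high for *AHP1* (0.975) with 157 CPM against 115 to 117, and low for *FAR1* (0.901) and *SPS1* (0.829).

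Rows of spike-in controls, which the comparisons do not use, held up to 54 counts in a library, and 19 libraries had more than 3 counts over the 90 rows.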

How the results depend on the processing

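*SAN1* and *MKC7* kept their direction and call in each of 38 settings, with log2 fold-changes against the mean of 1.25 to 1.34 and 1.64 to 2.20. The count against the mean of 4 strains was 190, and it was 339 with a likelihood ratio test, 364 with DESeq2, 602 at a threshold of 0.05, 20 with a 1.5-fold minimum, and 453 without the *ROF1* strain. In the same order of settings the 17 against *ROF1* became 114, 175, 233, and 5, and further 4 with TMM over all features and 3 with only the 8 libraries compared. The 0.05 threshold gave 1151 against *SFL1*, 1348 against *HEK2*, and 53 other features. The 1.5-fold minimum gave 369 against *TOS8*, 133 against *SFL1*, and 136 against *HEK2*, for which the 8 libraries alone gave 153. ORFs that differed the same way from all 4 strains became 7 (likelihood ratio test), 8 (DESeq2), 12 (threshold 0.05), 54 (without *ROF1*), 5 (without *HEK2*), and, in a reading chosen after seeing the data, 75 (unadjusted p). Leaving out libraries gave 41 to 237 against the mean, 767 to 1894 against *TOS8*, 3 to 246 against *ROF1*, 195 to 635 against *SFL1*, 213 to 768 against *HEK2*, 2 to 5 the same way from all 4, and 22 (without *SAN1* replicate 1) to 40 other features. The lowest counts against the mean, *TOS8*, and *HEK2* were those without replicate 3 of every strain, and *SFL1* gave 346 without its own replicate 4 and *HEK2* 400 without *SAN1* replicate 1. The cause of these changes was not tested.

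Library numbers were not used to pair the samples in the main fit. Of 16 same-numbered pairs, 7 had a correlation of deviations of 0.1 or less (mean 0.092, and -0.032 for other pairs). By strain, the means of same-numbered and other pairs were 0.218 and -0.074 for *SFL1* and 0.149 and -0.049 for *HEK2*. They were 0.088 and -0.031 for *ROF1* and -0.088 and 0.027 for *TOS8*. Deviations are taken from strain means, so both means are tied. A batch shared by number was not tested. With the number as a replicate block, the count against *ROF1* was 9 and the other counts moved by under 1.5 times. Of 98 named genes besides *SAN1* and *MKC7*, 85 were called, 5 of them in every setting (*AHP1*, *BAR1*, *BAT2*, *PDR12*, and *TOS8*), and 80 missed the threshold in at least 1. The 1.5-fold minimum alone removed 69 of the 85, whereas DESeq2 and the likelihood ratio test removed 0. Leaving out the same replicate number in every strain removed 30 to 60. *OPT2* reversed to -0.0035 without the *TOS8* strain. No setting gave a comparison with unmodified cells.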

Other observations

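The features below were picked after their values were seen. The feature 9F-4 (chrIX:23341-28535, plus strand), which runs over 2766 bases of *CSS1* on the other strand, had means of 8748 CPM, scaled to the total of the features other than ORFs, in the *SAN1* strain, 8879 in *ROF1*, 3398 in *TOS8*, 2903 in *SFL1*, and 2825 in *HEK2*. Its log2 fold-change was 1.14, while that of *CSS1* was -0.84. SUT2486.1 and SUT2486.2, which lie opposite *HPF1*, rose by 1.13 and 0.98, and *HPF1* had -0.73 (adjusted p = 0.013, edgeR). SUT1867.2 and SUT1869.1, opposite *DAN1*, rose by 0.99 and 0.74, and *DAN1* had -0.88 (adjusted p = 0.13). SUT2195.1, opposite *DDR48*, fell by 0.61, while *DDR48* rose by 0.49. The noncoding *PWR1*, next to *FLO11*, rose by 1.07, with means of 744.8 in the *SAN1* strain, 656.6 in *TOS8*, 911.7 in *ROF1*, 94.1 in *SFL1*, and 290.5 in *HEK2*.

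Of the 35 called features other than ORFs, 23 overlap an ORF on the opposite strand and 12 overlap no tested ORF. Replicate 1 was the highest of the 4 *SAN1* libraries for 13 of the 28 that rose. It stood apart for ST1682, opposite 3497 bases of *FLO11*, with 495 against 144, 69.8, and 138 in the other 3 libraries, and for 11R-94, opposite *HAP4*, with 250.1 against 98.4, 27.9, and 85.1. It also did for 7F-64, opposite *COX4*, with 112 against 22.7, 14.0, and 31.9. Without replicate 1, 22 features were called.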
